A study of Mus musculus with 4 samples.

Results

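The genes described here encode the accessory alpha2delta and beta subunits of voltage-gated calcium channels. They are Cacna2d1, Cacna2d2, Cacna2d3 and Cacna2d4 for alpha2delta and Cacnb1, Cacnb2, Cacnb3 and Cacnb4 for beta. They were taken by family name, by matching Entrez Gene identifiers to mouse symbols. All 8 were found among the 27179 identifiers counted, and all 8 were among the 16918 genes with enough reads to be tested. The tissue was spinal cord at levels L4-6 from C57BL/6J males, with 2 libraries labelled cuff and 2 labelled sham. A cuff around the sciatic nerve is a model of persistent neuropathic pain, the sham operation is its control, and the series gives day 28 after surgery. The sources used here do not give the age of the mice, the side of the cord taken, or whether a library came from 1 animal or a pool.

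A voltage-gated calcium channel has a pore-forming alpha1 subunit. In high-voltage-activated channels an intracellular beta subunit binds the pore, helps to bring it to the membrane and changes its gating, and an extracellular alpha2delta subunit raises the number of channels at the surface. In the dorsal horn these channels admit the calcium that triggers transmitter release from primary afferents. Gabapentin and pregabalin, which are used against neuropathic pain, bind the alpha2delta proteins encoded by Cacna2d1 and Cacna2d2.

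Members of each family differ in the base composition of their transcripts, a property along which the group differences of genes at large also varied. How alike their whole proteins are was not measured. Short coding stretches that encode the same 27 amino acids in a pair from each family show the difference in bases. They are 81 bases each, read 5′ to 3′ from GENCODE M21 transcripts (build GRCm38, which mm10 names), with G and C in capitals. The first pair is Cacna2d1, at coding bases 1234 to 1314, and Cacna2d2, at coding bases 1360 to 1440. The second pair is Cacnb4, at coding bases 667 to 747, and Cacnb3, at coding bases 544 to 624.
Cacna2d1: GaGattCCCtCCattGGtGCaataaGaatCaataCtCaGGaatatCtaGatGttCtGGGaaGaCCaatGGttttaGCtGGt
Cacna2d2: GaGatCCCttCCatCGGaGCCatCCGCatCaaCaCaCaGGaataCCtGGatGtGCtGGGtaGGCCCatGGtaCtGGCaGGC
Cacnb4: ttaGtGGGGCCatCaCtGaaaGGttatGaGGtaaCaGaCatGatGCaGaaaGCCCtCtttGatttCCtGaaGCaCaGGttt
Cacnb3: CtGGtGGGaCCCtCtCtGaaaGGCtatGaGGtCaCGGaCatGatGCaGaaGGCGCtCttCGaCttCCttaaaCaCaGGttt
G and C made up 40.7% of the Cacna2d1 stretch and 58% of the Cacna2d2 stretch. They made up 44.4% of the Cacnb4 stretch and 51.9% of the Cacnb3 stretch. Over the longest annotated transcript the gap was wider for the beta pair, with 40.5% GC in Cacnb4 and 61.3% in Cacnb3. Most of the Cacnb4 transcript is noncoding, and its 6665 noncoding bases had 38% GC against 51% in its coding part.

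Library totals ran from 32936609 to 39461573 counts. For all 4 libraries the file name and the sample title disagree on cuff and sham. Groups follow the titles here, and if the file names hold the truth every direction given is the reverse. Cuff replicate 2 stood apart in genes of tissues next to the cord. Its summed level of 14 skeletal muscle genes was 903 CPM, that is, counts scaled to a common library total, against 183 to 322 in the other 3 libraries, and its summed level of 8 Schwann cell genes was 3203 CPM, against 577 to 1206. The sensory neuron channel gene Scn10a was at 0 in every library except that one, where it had 6.24 CPM. The list of 12 sensory ganglion genes that holds Scn10a differed less in sum. It had 172 CPM in cuff replicate 2, 146 in cuff replicate 1, and 137 and 135 in the sham libraries. Within it Prph was lower in cuff replicate 2 (81.5 CPM) than in cuff replicate 1 (87.5 CPM). Pan-neuronal genes, which cord tissue should hold, were high in all libraries, with a summed level over 6 genes of 7761 and 6668 CPM in the cuff libraries and 7878 and 7314 in the sham libraries. In bulk tissue, fewer cells of a type and less RNA per cell cannot be told apart.

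Cacnb4 was the only member past the test's threshold, and it was lower in the libraries labelled cuff. It lies at mm10 chr2:52428320-52676609 (Entrez 12298) and encodes the beta4 subunit, whose loss causes the ataxia and seizures of the lethargic mouse. Its level was 167 and 130 CPM in cuff replicates 1 and 2, and 215 and 224 CPM in sham replicates 1 and 2. Both cuff libraries lay below both sham libraries, and the 2 cuff libraries differed more from each other than the sham libraries did. The group means were 149 ± 26.2 and 220 ± 6.35 CPM (SD, n = 2 each). Cacnb4 fell by 32.3%, or -0.56 ± 0.14 on the log2 scale (SE; adjusted p = 0.0344, edgeR's quasi-likelihood test with Benjamini-Hochberg adjustment over all tested genes). That made 1 of 8 members called at an adjusted p under 0.05, against 4.11% of all tested genes, and 1 of 8 called lower, against 2.96%. The call was lost when any of 3 libraries was left out, with an adjusted p from the same test of 0.559 without cuff replicate 2, 0.298 without sham replicate 1 and 0.186 without sham replicate 2. It was also lost with limma-voom (adjusted p = 0.0733), with a dispersion prior that was not robust (adjusted p = 0.0701, edgeR) and after correction for transcript length and GC content (adjusted p = 0.431, edgeR). With 2 libraries a group, no permutation of the labels can give a p under 0.333, and the model's p-values speak for the spread among these 4 libraries alone.

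Marker genes of other cells moved beside Cacnb4. The summed level of 6 astrocyte genes was 4393 and 3677 CPM in the cuff libraries and 5325 and 5220 in the sham libraries. The summed level of 6 dorsal horn neuron genes was 844 and 805 CPM against 889 and 1026. In both lists the summed levels did not overlap between the groups. Single genes stood apart in this way for 54.1% of all tested genes, and no such share was taken for sums. In each list 1 of 6 genes was called lower, against 2.96% of all tested genes. These were Aqp4, a water channel (593 and 463 against 824 and 811 CPM), and Slc6a5, a glycine transporter (73.9 and 57.8 against 104 and 155 CPM), both named after their values were seen. In each list 5 of 6 genes had a negative log2 fold change. Slc32a1, the vesicular transporter of inhibitory neurons, lay the other way without overlap, at 182 and 206 against 159 and 167 CPM. So did the astrocyte gene Aldh1l1, at 67.5 and 72.7 against 66.8 and 67.3 CPM. The astrocyte gene Gfap overlapped between the groups. With the length and GC correction 0 genes of either list were called by edgeR's quasi-likelihood test. The list with the most calls was that of 6 endothelial genes, with a summed level of 89.7 and 97.0 CPM in the cuff libraries against 45.1 and 54.4. Of these 5 were called higher (Cldn5, Pecam1, Flt1, Tek and Kdr), against 1.15% of all tested genes, and 3 with the length and GC correction. Summed levels of 6 microglial genes were 256 and 219 against 287 and 273 CPM. Those of 8 meningeal genes were 1028 and 1793 against 901 and 820 CPM. Both were without overlap. In both lists 0 genes were called by edgeR's quasi-likelihood test with group as the only term (1 and 2 at an unadjusted p under 0.05). DESeq2 and edgeR's likelihood ratio test each called 1 meningeal gene higher. With the replicate number as a block, the quasi-likelihood test called 5 meningeal and 6 of 8 Schwann cell genes higher. With group alone, 1 Schwann cell gene was called higher (Sox10, against 1.15% of all tested genes) and 1 lower (Cdh19, against 2.96%). Sums of 14 skeletal muscle genes were 322 and 903 against 266 and 183 CPM. Those of 12 sensory ganglion genes were 146 and 172 against 137 and 135 CPM. Both were apart with cuff the higher, and 0 genes of either list were called with group alone. No gene of these lists was at 0 in all libraries. Their part in the result was not tested. Cacnb4 also shares 1433 of its 8963 exon bases (16%) with A430018G15Rik on the opposite strand. Whether the counting used strand is unknown here, which leaves reads of that stretch uncertain.

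Cacnb3 encodes beta3, a partner of N-type channels, and lies at chr15:98628436-98644536. Its level was 38.1 and 46.7 CPM in the cuff libraries and 28.2 and 32.8 CPM in the sham libraries. The groups did not overlap, with cuff the higher. The log2 fold change was 0.48 ± 0.15 (SE), and the adjusted p of 0.0725 from edgeR's quasi-likelihood test missed the threshold. It passed with upper quartile scaling (0.0496) and with no filter (0.0333), in the same test. It did not pass with a prior that was not robust (adjusted p = 0.113, edgeR), with limma-voom (adjusted p = 0.124) or with DESeq2 (adjusted p = 0.0833). The log2 fold change was 0.57 without cuff replicate 1 and 0.32 without cuff replicate 2. It was 0.35 without sham replicate 1 and 0.59 without sham replicate 2.

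Cacnb1 (chr11:98001508-98023034) encodes the beta subunit of the skeletal muscle channel and is also present in neurons. It had 34.5 and 35.5 CPM in the cuff libraries and 28.0 and 33.3 in the sham libraries. The groups were apart by a small margin, and the log2 difference, 0.19 ± 0.14 (SE), was not called (adjusted p = 0.464, edgeR). Cuff replicate 2, with 903 CPM of skeletal muscle genes against 322 in cuff replicate 1, had 35.5 CPM of Cacnb1 against 34.5, and the part of muscle RNA in the group difference was not tested.

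Cacnb2 (chr2:14603861-14988811) encodes the main beta subunit of cardiac L-type channels. It had 44.4 and 37.9 CPM in the cuff libraries and 46.3 and 44.4 in the sham libraries. The groups overlapped, and the log2 fold change was -0.14 ± 0.14 (SE; adjusted p = 0.597, edgeR).

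**Figure D1:**
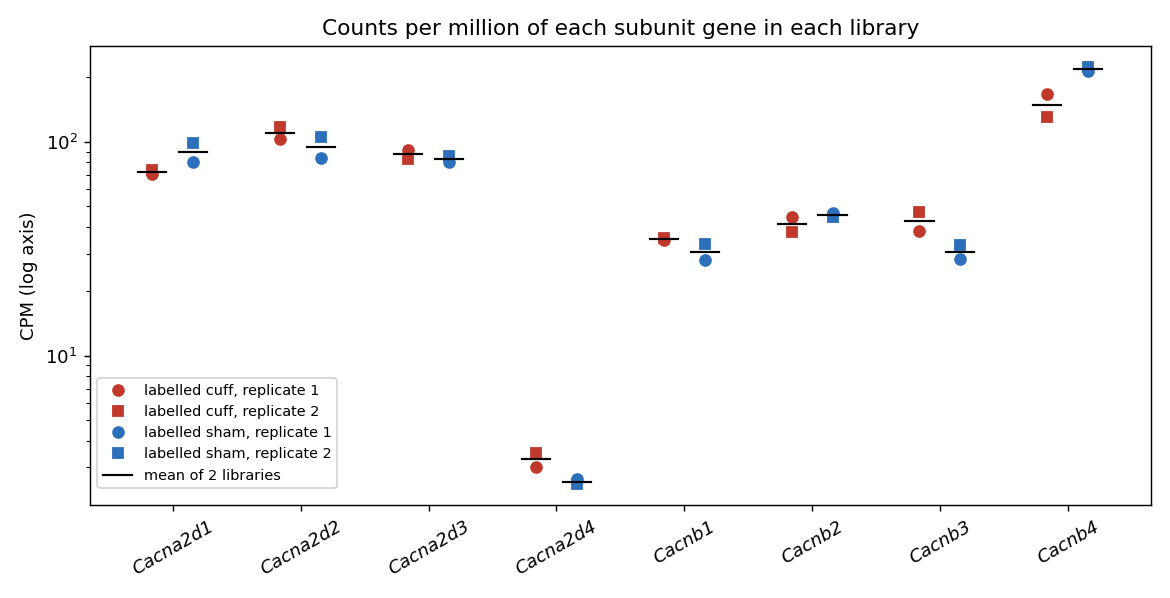
Level of each of the 8 genes in CPM in each library, with points for libraries, by labelled group, and the mean of 2 libraries marked. Both cuff libraries lie below both sham libraries for Cacnb4 (167 and 130 against 215 and 224 CPM) and above them for Cacnb3 (38.1 and 46.7 against 28.2 and 32.8 CPM).

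None of the 4 alpha2delta genes passed edgeR's quasi-likelihood test, and 1 of the 4 had an unadjusted p under 0.05, against 21.5% of all tested genes. That gene was Cacna2d1 (chr5:15934264-16374511), which encodes alpha2delta-1, the gabapentinoid target that is known to rise in sensory neurons after nerve injury. Its level was 70.6 and 74.0 CPM in the cuff libraries and 80.2 and 99.2 CPM in the sham libraries. The cuff libraries were the lower without overlap, and sham replicate 2 stood highest. The log2 fold change was -0.31 ± 0.14 (SE; adjusted p = 0.199, edgeR), and it was -0.47 without sham replicate 1 and -0.15 without sham replicate 2.

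Cacna2d2 (chr9:107399733-107529346) encodes alpha2delta-2, the other gabapentinoid-binding subunit, whose loss causes the ducky phenotype of ataxia and absence seizures. It had 103 and 117 CPM in the cuff libraries and 84.4 and 105 in the sham libraries. The groups overlapped, and the log2 fold change was 0.22 ± 0.14 (SE; adjusted p = 0.382, edgeR). Within each library, where no scaling factor enters, the count ratio of Cacna2d1 to Cacna2d2 was 0.684 and 0.631 in the cuff libraries and 0.951 and 0.947 in the sham libraries. This ratio is not free of the length and GC trends, and after correction for them both genes had a log2 fold change of 0.11.

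Cacna2d3 (chr14:28904943-29722775) encodes alpha2delta-3, a gene tied to heat pain sensitivity in flies and mice. It had 91.6 and 82.9 CPM in the cuff libraries and 80.6 and 85.9 in the sham libraries. These groups overlapped (log2 fold change 0.07 ± 0.13 SE, adjusted p = 0.812, edgeR).

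Cacna2d4 (chr6:119236524-119352407) encodes alpha2delta-4, best known from photoreceptors. It was near the lower end of the range, with 109 and 120 counts (3.02 and 3.52 CPM) in the cuff libraries and 101 and 97 counts (2.64 and 2.51 CPM) in the sham libraries. The cuff libraries were the higher without overlap, and the log2 difference was 0.34 ± 0.31 (SE; adjusted p = 0.556, edgeR).

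In all, the groups did not overlap for 5 of the 8 members, against 54.1% of all tested genes. The cuff libraries were the higher for 3 of them, against 28.2%, and the lower for 2, against 25.9%. Groups of 2 therefore stood apart for these genes about as often as for genes at large.

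The members' directions followed the base composition of their transcripts. Cacnb2, Cacnb4 and Cacna2d1, with 39.0%, 40.5% and 40.7% GC over the longest transcript, were the 3 members with a negative log2 fold change. The other 5, from Cacna2d3 at 49.1% to Cacnb3 at 61.3%, had a positive one. The same trend ran through all 15465 tested genes with a transcript sequence. Their median log2 fold change was -0.27 in the tenth of genes with the lowest GC content and 0.28 in the tenth with the highest. It was also -0.27 in the tenth with the longest transcripts, which holds Cacnb4 (8225 bases) and Cacna2d1 (7436 bases). The tenth next to it in length had a median of -0.13. It holds Cacna2d2 (5807 bases) and Cacna2d4 (5803 bases), whose log2 fold changes were positive, at 0.22 and 0.34.

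**Figure D2:**
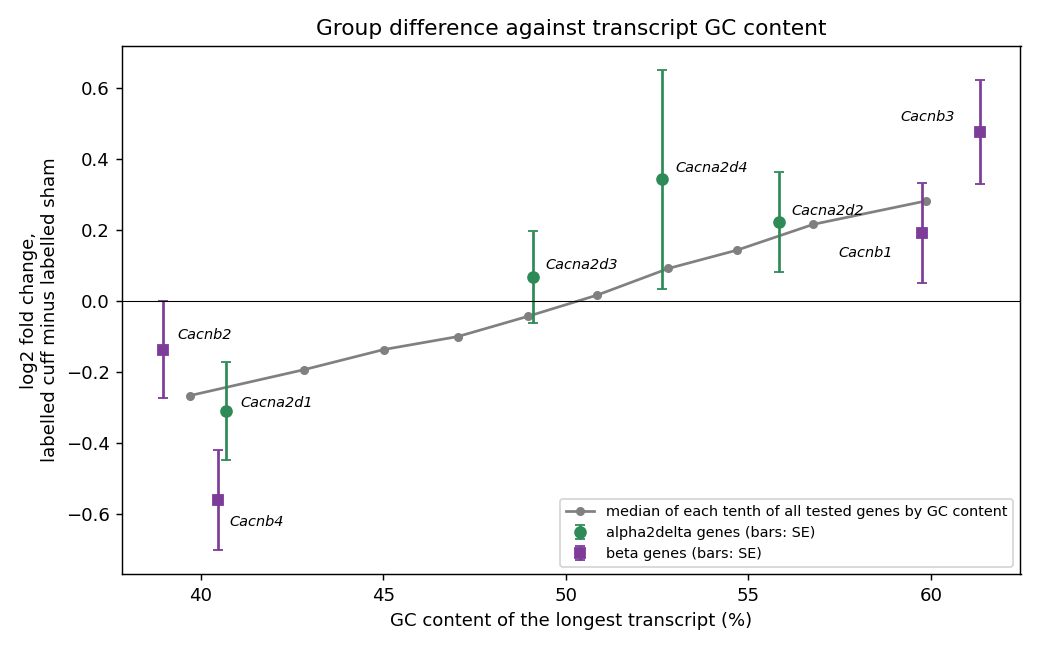
Log2 fold change, labelled cuff minus labelled sham, against GC content of the longest transcript in percent, for the 8 genes and for medians of equal bins of all tested genes with a transcript sequence. The bins run from -0.27 to 0.28, and the 3 members of lowest GC content lie under 0.

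When each library was corrected for transcript length and GC content by local regression, no member was called, and the largest log2 fold change among them was 0.33 (Cacna2d4). Cacnb4 went from -0.56 to -0.13 on the log2 scale (adjusted p = 0.431, edgeR's quasi-likelihood test). Its corrected levels of 180 and 164 CPM in the cuff libraries lay below the 193 and 184 CPM of the sham libraries by a small margin. Cacnb3 went from 0.48 to 0.16 (adjusted p = 0.442, edgeR). Cacna2d1 turned from -0.31 to 0.11, Cacnb2 from -0.14 to 0.20 and Cacnb1 from 0.19 to -0.10, while Cacna2d2 (0.11), Cacna2d3 (0.09) and Cacna2d4 (0.33) kept a positive sign. Cacnb2 then had 46.6 and 45.8 corrected CPM in the cuff libraries against 41.0 and 39.4 in the sham libraries, without overlap (adjusted p = 0.268, edgeR). Such a correction removes any real change that runs with length or GC content as well, and what gave rise to the trend was not tested.

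**Figure D3:**
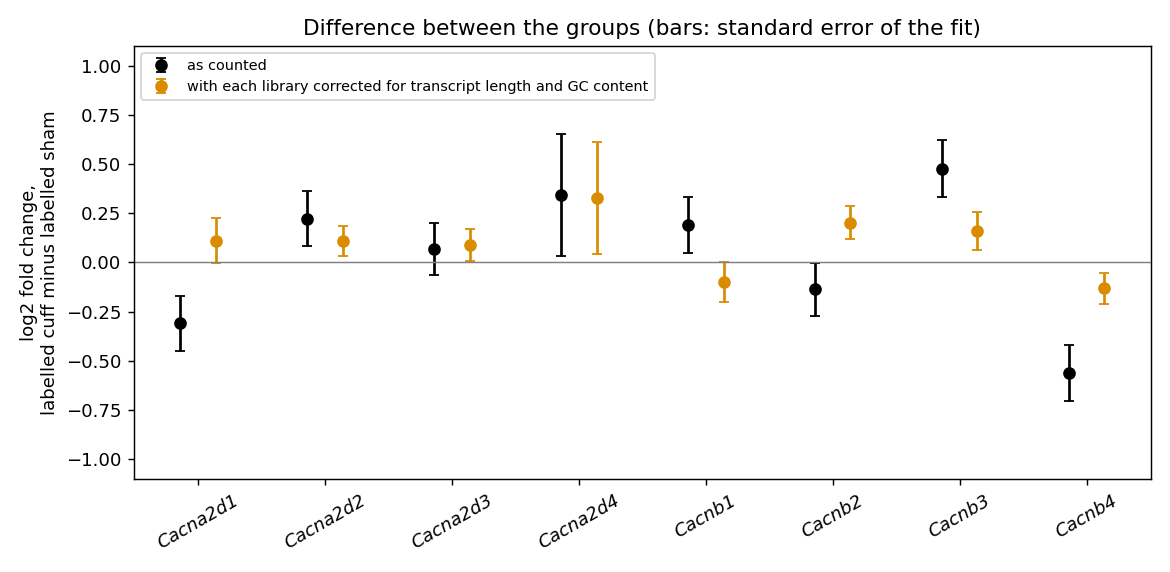
Log2 fold change, labelled cuff minus labelled sham, of each of the 8 genes without and with correction for transcript length and GC content, with standard errors. Cacnb4 goes from -0.56 to -0.13, and Cacna2d1, Cacnb1 and Cacnb2 change sign.

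Levels were compared between genes in CPM per kilobase of exon. Cacnb4 was the highest at 20.5 ± 4.89 (SD over the 4 libraries of both groups), followed by Cacna2d2 (12.9), Cacna2d3 (9.78), Cacnb3 (9.09), Cacnb1 (7.25), Cacna2d1 (6.52), Cacnb2 (3.27) and Cacna2d4 (0.308). Cacnb4 ranged from 14.5 to 25.0 over the libraries and overlapped Cacna2d2, which ranged from 10.6 to 14.8. In cuff replicate 2 Cacna2d2 came first, at 14.8 against 14.5. The lowest Cacna2d2 level, 10.6, was just above the highest of Cacna2d3, 10.5. Among Cacna2d3, Cacnb3, Cacnb1 and Cacna2d1 the ranges of neighbours in the order overlapped, whereas Cacnb2 and Cacna2d4 lay apart below. The order depends on the length used, since per kilobase of the longest transcript Cacna2d3 came first at 23.1, ahead of Cacnb4 at 22.4.

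Cacnb4 held a lower share of the beta family in the cuff than in the sham libraries, by each of 3 measures of the share. Its share of the beta family's CPM per kilobase was 47.7% and 39.4% in the cuff libraries and 59.0% and 57.0% in the sham libraries. Per kilobase of the longest transcript it was 38.2% and 31.1% against 48.5% and 47.1%, where Cacnb3 was ahead of it in cuff replicate 2 (33.6%), and by counts it was 58.8% and 52.0% against 67.7% and 67.0%. Cacnb3 held 24.3% and 31.6% per kilobase of exon against 17.3% and 18.6%. Neither share overlapped between the groups. Cacnb2 held between 7.64% and 8.59% in all 4 libraries. The count ratio of Cacnb3 to Cacnb4 within a library was 0.228 and 0.359 in the cuff libraries and 0.131 and 0.146 in the sham libraries, a difference of 1.05 on the log2 scale. After the length and GC correction the log2 fold changes of Cacnb3 and Cacnb4 were 0.16 and -0.13, which lie much closer.

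In the alpha2delta family 3 genes held nearly all of the summed level, and Cacna2d4 held 0.847% to 1.21%. Cacna2d2 held 44.0% and 48.2% of its family's CPM per kilobase in the cuff libraries and 39.9% and 42.1% in the sham libraries. Cacna2d1 held 19.3% and 19.5% against 24.3% and 25.5%. Cacna2d3 held 35.6% and 31.1% against 34.7% and 31.5%, which overlap. The leading gene depends on the measure. Per kilobase of the longest transcript Cacna2d3 was ahead, at 47.1% and 42.2% in the cuff libraries and 45.8% and 42.2% in the sham libraries. Cacna2d2 then held 33.8% and 38.0% against 30.5% and 32.8%. By counts Cacna2d2 was ahead in every library. The family sum was 29.5 and 30.6 CPM per kilobase of exon in the cuff libraries and 26.6 and 31.3 in the sham libraries, so that the groups overlapped. The beta family sum was 39.1 and 36.9 against 40.7 and 43.9. These shares are not corrected for the length and GC trends.

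**Figure D4:**
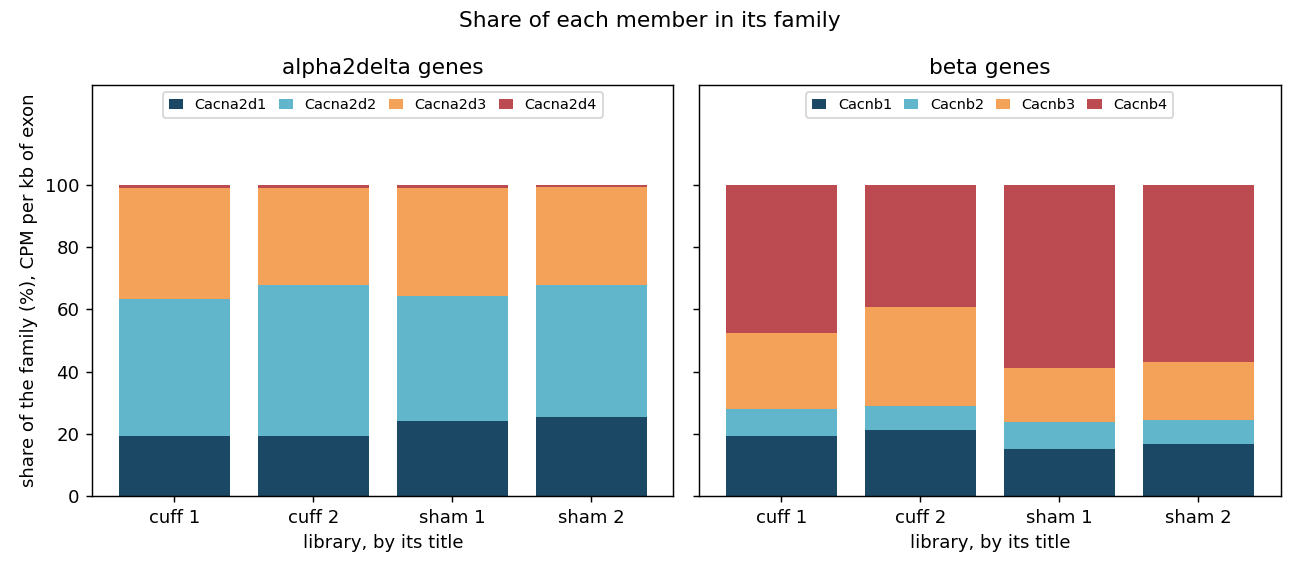
Share of each gene in its family's summed CPM per kilobase of exon, in percent, in each of the 4 libraries. Cacnb4 takes 39.4% to 47.7% of the beta family in the cuff libraries and 57.0% to 59.0% in the sham libraries.

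The genes whose pattern over the 4 libraries was most like that of Cacnb4 were Pak3, Rprd1a, Kpna4, Mfap3l and Dzip3. Likeness was the Euclidean distance between centred log2 CPM profiles, and it ran from 0.0047 for Pak3 to 0.0374 for Dzip3 among 13858 genes compared. For Cacna2d2 they were Fbxo10, Mbtps1, Btg3, Rgp1 and Slc6a17, with distances from 0.018 to 0.0275.

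Among the proteins that alpha2delta subunits bind or work beside, 14 genes were tested. Of these 1 was called higher (against 1.15% of all tested genes) and 1 lower (against 2.96%). An unadjusted p under 0.05 in edgeR's quasi-likelihood test was found for 7 of the 14, against 21.5% of all tested genes. The median log2 fold change of the list was -0.04, against 0.02 over all genes. Thbs3 encodes a thrombospondin, a family of matrix proteins that bind alpha2delta-1. It had 17.4 and 21.5 CPM in the cuff libraries and 12 and 11.2 in the sham libraries (log2 fold change 0.74 ± 0.17 SE, adjusted p = 0.0241, edgeR). Grin2a encodes the GluN2A subunit of NMDA receptors. It had 0.915 and 1.05 CPM in the cuff libraries and 2.64 and 7.36 in the sham libraries (-2.34 ± 0.47, adjusted p = 0.0258, edgeR), with a wide gap between the 2 sham libraries. With the length and GC correction neither was called (adjusted p = 0.0924 and 0.0979, edgeR), nor with limma-voom (adjusted p = 0.0666 and 0.0918).

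Among 13 tested partners and inhibitors of beta subunits, 0 were called higher (against 1.15% of all tested genes) and 1 lower (against 2.96%). The median log2 fold change was -0.02. An unadjusted p under 0.05 in edgeR's quasi-likelihood test was found for 5 of the 13, against 21.5% of all tested genes. The gene called lower was Rims1, an active zone scaffold that binds beta subunits at release sites. It had 36.4 and 29.2 CPM in the cuff libraries and 46.2 and 59.9 in the sham libraries (-0.69 ± 0.16, adjusted p = 0.0246, edgeR, 0.0874 with the correction and 0.0702 with limma-voom).

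No pore-forming subunit gene was called among 10 tested with edgeR's quasi-likelihood test. An unadjusted p under 0.05 was found for 1, against 21.5% of all tested genes. That gene was Cacna1s, the pore of the skeletal muscle channel. Cacna1s had 0.943 and 2.90 CPM in the cuff libraries and 0.889 and 0.337 in the sham libraries (adjusted p = 0.154). Its highest level was in cuff replicate 2, the library with the most skeletal muscle RNA, whose part in that difference was not tested. Cacna1g, the pore of a T-type channel, had the next smallest p (log2 fold change 0.26 ± 0.16 SE, adjusted p = 0.384, edgeR).

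Of 8 gamma subunit genes 6 were tested and 0 were called by edgeR, with 0 at an unadjusted p under 0.05. The smallest p belonged to Cacng3 (0.31 ± 0.18, adjusted p = 0.322) and Cacng5 (0.28 ± 0.17, adjusted p = 0.354).

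Of 12 genes of the release machinery that these channels serve, 0 were called by edgeR's quasi-likelihood test. An unadjusted p under 0.05 was found for 5 of them, against 21.5% of all tested genes. DESeq2 and edgeR's likelihood ratio test each called 1 lower. Syt2, a fast calcium sensor of release, had 175 and 151 CPM in the cuff libraries and 201 and 280 in the sham libraries (-0.56 ± 0.16, adjusted p = 0.0577, edgeR).

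Of 3 genes for carriers of gabapentinoids 0 were called by edgeR, with 1 at an unadjusted p under 0.05, against 21.5% of all tested genes. Slc7a5, the light chain of the amino acid carrier that takes up gabapentin, had 62.9 and 70.9 CPM in the cuff libraries and 51.7 and 51.5 in the sham libraries (0.38 ± 0.13, adjusted p = 0.104, edgeR). Its heavy chain, Slc3a2, had a log2 fold change of 0.20 ± 0.13 (adjusted p = 0.382, edgeR).

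Of 6 axon injury genes 5 were tested and 0 were called by edgeR, with 0 at an unadjusted p under 0.05. Atf3, a transcription factor that injured sensory neurons switch on, had 0.998 and 1.17 CPM in the cuff libraries and 1.15 and 1.74 in the sham libraries (adjusted p = 0.628, edgeR). Gap43, a growth cone protein, had 110 and 106 CPM against 119 and 113 (adjusted p = 0.694, edgeR).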

How the data were processed

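Strand-specific poly(A) libraries were sequenced as read pairs of 150 bases, per the labels' protocols. Reads were processed with Trimmomatic 0.30, HISAT2 2.0.1 and featureCounts on mm10, per the submitters' processing notes. Strand option, annotation and counting of reads or pairs were not given in the sources used here. Each deposited file gives 1 library's counts by Entrez Gene identifier, raw and whole. In 1 file the columns were joined by a literal backslash and letter and were split there. RefSeq symbols matched 25275 of 27179 identifiers, and GENCODE M21 matched 18 more.

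Groups and replicate numbers came from the titles. Genes kept by filterByExpr were scaled with TMM factors (trimmed mean of M values) and tested with edgeR 4.0.16 in R 4.3.3 (quasi-likelihood F test, robust prior, two-sided, group as the only term), with Benjamini-Hochberg adjustment over all 16918 genes and a threshold of 0.05. CPM uses TMM-scaled totals. Length and GC content came from the longest GENCODE M21 transcript, and the correction was a local regression with a span of 0.3, entered as offsets. The steps were tested on simulated counts. In counts simulated with the length and GC trend, the uncorrected fit made 140 false calls and the corrected fit 26. Of genes changed 1.5-fold, they called 37.3% and 40.3%, and of genes changed 4-fold 100% each. DESeq2 1.42.0 and limma 3.58.1 were alternatives. All members were named, and from each pathway list every called gene, or else the 2 with the smallest p, of which 1 is not reported here. The members and lists were chosen with earlier results of these data known.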

Additional observations from a re-analysis of the deposited data

How the results depend on the processing

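Of the members called, the count of 1 held with RLE scaling, DESeq2, the likelihood ratio test and a mean count of at least 10. It also held with genes with a transcript length only, and with other cell types' genes left out. The gene was Cacnb4 each time. Leaving those genes out (16878 stayed in the test) changes only the scaling and the fit across genes. It cannot take other cells' reads out of Cacnb4, so it does not show whether such cells had a part. The count was 2 with upper quartile scaling and with no filter, where Cacnb3 was added (adjusted p = 0.0496 and 0.0333, edgeR). It was 0 with limma-voom (2 members at an unadjusted p under 0.05) and with a prior that was not robust (3 at an unadjusted p under 0.05), where the adjusted p of Cacnb4 was 0.0733 and 0.0701. With the replicate number as a block (replicate block) it was 0 of 554 genes called, with Cacnb4 at -0.57 (adjusted p = 0.0524, edgeR). The titles give 2 numbers only and do not say that they pair the libraries, so the main model had group alone. Deviations of same-numbered libraries correlated at 0.116. With 2 libraries a group, crossed numbers must give the reverse (-0.116), so this cannot settle whether the numbers pair the libraries. It was 0 with the length and GC correction, and 0 with that correction and the replicate block (515 genes called), each with 1 member at an unadjusted p under 0.05. GC correction alone and length correction alone, both chosen after seeing the data, also gave 0, with Cacnb4 at -0.31 and -0.33. Leaving out 1 library gave 0 to 2 members. The lone library is then assumed to vary like the others.

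The 696 genes called became 1058 with DESeq2, 147 with limma-voom, 1046 with the likelihood ratio test, 237 with the prior not robust, 1292 with no filter, 59 with the length and GC correction (22 higher, 37 lower), 17 with GC alone and 156 with length alone, and 0 to 1928 with 1 library left out (0 without sham replicate 1, with 2260 at an unadjusted p under 0.05). The cause was not tested.

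Signs turned for Cacna2d1 (0.11), Cacnb1 (-0.10) and Cacnb2 (0.20) with the length and GC correction, and to the same rounded values with the replicate block added. They turned for Cacnb1 (-0.073) and Cacnb2 (0.15) with GC alone. Cacna2d3 ranged from -0.056 to 0.136 with 1 library left out. Cacnb4 stayed negative in every alternative named here. Having 2 libraries a group limits every comparison, and Cacna2d4 had 97 to 120 counts a library.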
